A study of Homo sapiens and Mus musculus with 6 samples.

Results

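The promoters of 8 regulators of the germinal centre and of plasma cells, BCL6, BACH2, IRF8, CIITA, MEF2C, IRF4, PRDM1 and XBP1, were followed in Promoter CHi-C, a form of Hi-C in which ligation products that contain an annotated promoter are enriched by hybridisation to RNA baits. A call belonged to these genes where one of their symbols stood on either of its fragments, and the same symbols, ignoring case, were looked up in mouse embryonic stem cells (mESCs). In GM12878 this gave 129 calls of 92929, and all 8 genes were among the 21998 symbols with a call. In mESCs it gave 42 calls of 101841, and 7 of the 8 genes were among the 17014 symbols with a call, Mef2c being the exception.

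GM12878 is a human lymphoblastoid cell line, that is, B lymphocytes of a single donor made to grow without limit by Epstein-Barr virus, and was represented by 3 biological replicates. The mESCs were J1 cells of the 129S4/SvJae strain, grown on irradiated fibroblasts that were removed before fixation, and were represented by 2 biological replicates and 1 Hi-C library. No cells were treated beyond the formaldehyde fixation that the assay needs, and RNA was not measured, so neither cell type could be checked against its marker genes. The interactions of each cell type were called once on its replicates together. The values below therefore have no replicate error, and the intervals given cover counting error alone. Species, cell type and capture design differ together between the lists and cannot be told apart.

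B cells that enter a germinal centre mutate their antibody genes and either recycle or leave as memory or plasma cells. BCL6 and BACH2 are transcriptional repressors that hold the germinal centre programme, IRF8 and MEF2C act in germinal centre B cells, and CIITA switches on the MHC class II genes with which B cells present antigen. IRF4 and PRDM1, which encodes the repressor BLIMP1, drive the exit to plasma cells, and XBP1 expands the secretory apparatus there. Several of these genes are known to be controlled by enhancers far from their promoters.

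IRF4 and PRDM1 carried most of the GM12878 interactions. IRF4 had 47 calls (exact Poisson 95% interval 34.5 to 62.5) and PRDM1 had 45 (32.8 to 60.2). IRF8 had 15 calls (8.40 to 24.7), BCL6 and MEF2C had 8 each (3.45 to 15.8), CIITA had 3, BACH2 had 2 and XBP1 had 1. The intervals of IRF4 and PRDM1 lay above those of the other 6 genes, and overlapped each other. A symbol with a call had a median of 4 calls in GM12878, and the 8 genes had a median of 8. Symbols with at least 40 calls made up 2.58% of the list, and 2 of the 8 genes, IRF4 and PRDM1, were among them. Symbols with at least 10 calls made up 25.3%, and IRF8 joined these 2. Both limits were set after the calls of the 8 genes had been seen. BCL6, MEF2C and XBP1 lay on fragments that carry a further symbol, RP11-211G3.2, MEF2C-AS1 and CTA-292E10.6 respectively, so their calls are calls of these transcripts too.

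In mESCs the order was another. Ciita had 12 calls from 2 baited fragments (6.20 to 21.0), Bcl6 had 10 (4.80 to 18.4), Irf4 and Prdm1 had 8 each, Xbp1 had 2, and Irf8 and Bach2 had 1 each. No call of Mef2c was listed, a count that allows up to 3 calls (3.69 by the exact Poisson interval), and whether a Mef2c fragment was baited is not given in the lists. GM12878 had 15 times as many calls as mESCs at IRF8, 5.88 times at IRF4 and 5.63 times at PRDM1, and for these 3 genes the 2 counting intervals did not overlap. The share of all symbols whose intervals lie apart in this way was not taken. Calls of neighbouring fragments are not independent, so the intervals are too narrow for genes called in runs. At BACH2 the ratio was 2, on 2 calls against 1. A ratio of at least 2 in favour of GM12878 was reached by 31.6% of the 8690 symbols with a call in both lists, and by 4 of the 7 genes that could be compared. A ratio of at least 2 in favour of mESCs was reached by 34.6% of symbols, and by 2 of the 7 genes, CIITA with a GM12878 to mESC ratio of 0.25 and XBP1 with 0.5. BCL6 had a ratio of 0.8. For MEF2C, with 8 calls in GM12878 and none listed in mESCs, the 2 counting intervals overlapped.

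**Figure D1:**
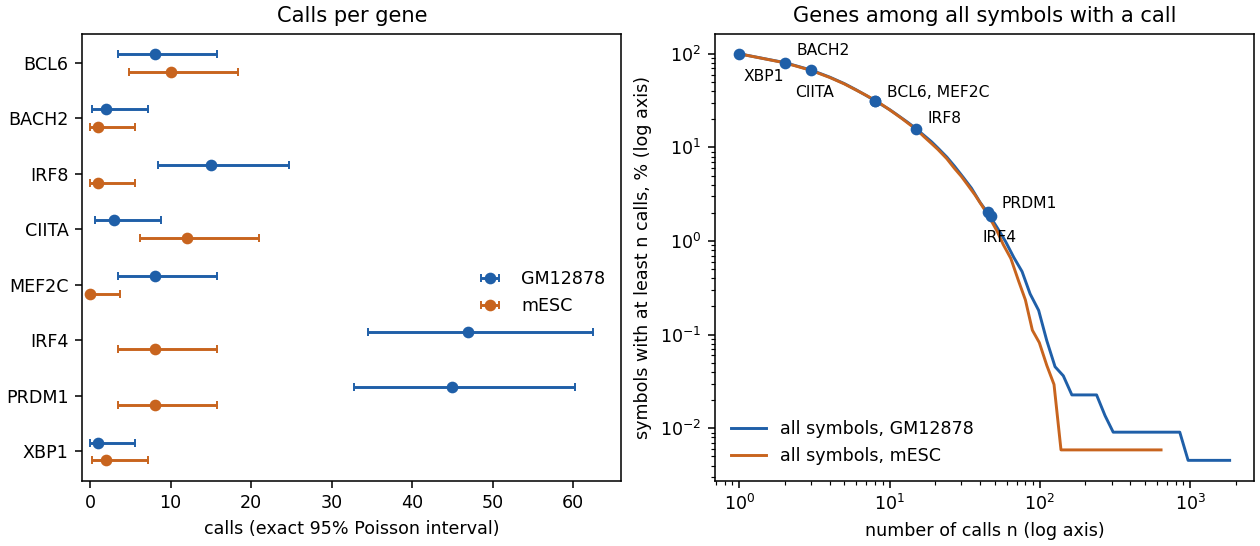
Left, number of calls of each gene in GM12878 (blue) and mESCs (orange) with exact 95% Poisson intervals. Right, share of all symbols that have at least a given number of calls, both axes logarithmic, with the 8 genes placed on the GM12878 curve. IRF4 with 47 calls and PRDM1 with 45 lie at the sparse end of the curve, where 2.58% of symbols have at least 40 calls.

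IRF4 encodes an interferon regulatory factor that is needed both early in the germinal centre reaction and, at higher dose, for plasma cells. Its baited fragment in GM12878 was chr6:391136-396367 (hg19), close to the end of the short arm of the chromosome. The bait holds the 135 bases that end 15 bases before the RefSeq start of IRF4, at chr6:391602-391736 on the forward strand. They are shown because 45 of the 47 IRF4 calls below were made from the fragment that carries them, with capitals for GGGCGG on either strand and for TATAAA.
IRF4 promoter: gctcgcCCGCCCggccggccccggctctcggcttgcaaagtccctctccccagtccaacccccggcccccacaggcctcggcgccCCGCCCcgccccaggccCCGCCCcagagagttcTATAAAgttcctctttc
G and C made up 73.3% of these bases, against a median of 59.3% over 35116 RefSeq promoter windows of the same length. GGGCGG on either strand stood in 34.3% of those windows and TATAAA on either strand in 6.43%.

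The IRF4 bait contacted 46 fragments. Of its 47 calls 38 lay upstream, toward the telomere, and 9 downstream. A run of 35 called fragments out of the 60 HindIII fragments between 232 and 42.5 kb upstream covered 193 kb, over DUSP22, which encodes a dual-specificity phosphatase, and over the stretch between DUSP22 and the telomere. The highest score of all 8 genes, 35.74 on 54 reads, was that of chr6:230419-232603, an intergenic fragment 162 kb upstream of IRF4. A score at least as high was given to 0.170% of GM12878 calls, a share of single calls set beside the highest of 47. Its neighbour chr6:227115-230418, 165 kb upstream, scored 27.31 on 43 reads. The second maximum lay inside DUSP22, where chr6:333018-339699, 57.4 kb upstream, scored 30.19 on 76 reads, the most reads of any IRF4 call, and chr6:328424-332163, 63.5 kb upstream, scored 26.08 on 66 reads. Between these maxima, unbaited fragments such as chr6:278524-285310 at 112 kb scored 6.35 on 22 reads, so that read counts of unbaited fragments fell and rose again with distance. The baited DUSP22 fragment, 100 kb upstream and also between the maxima, had 72 reads and a score of 17.52. The paper expects more reads between baits than between a bait and an unbaited fragment at the same distance.

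Calls that overlapped DUSP22 numbered 12, on 29 to 76 reads. A further 3 calls fell in the exons of IRF4 itself, 10.4 to 16.5 kb downstream of the bait, on 49 to 72 reads but with scores of 8.39 or less. On the other side, 5 calls fell in EXOC2, which encodes a subunit of the exocyst that tethers secretory vesicles, 93.1 to 164 kb downstream, with scores of 8.23 or less. The 3 calls between IRF4 and a baited other end joined it to DUSP22 (72 reads, score 17.52, called from the DUSP22 bait) and to RP3-416J7.5, a transcript 198 kb upstream, called from both ends on 47 reads with scores of 17.50 and 12.15. Of the 46 fragments that IRF4 contacted, 33 (71.7%) were also contacted by the DUSP22 bait, which had 102 called fragments, so the overlap was 32.4% of the DUSP22 fragments. RP3-416J7.5 shared 7 of its 11 fragments with IRF4.

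PRDM1 showed a wider and thinner pattern. Its bait, chr6:106531924-106537743, contacted 44 fragments in 13 separate groups, where called fragments within 10 kb of each other were joined into a group. The farthest group held 14 of 34 fragments, between 682 and 584 kb upstream, over PREP, a prolyl peptidase gene, and beyond its start. The highest scores of PRDM1 were there, 17.25 at 656 kb (chr6:105877774-105880807) and 17.16 at 650 kb (chr6:105880808-105887979), both in introns of PREP and both on 20 reads. A score of at least 17.25 was given to 3.07% of GM12878 calls. That is a share of single calls, whereas 17.25 is the highest of 45 calls, so it does not show a rare score. A second stretch, between 360 and 253 kb upstream, held 14 called fragments in introns of a long noncoding RNA gene, ENSG00000284999, with 14 to 20 reads and scores up to 9.36. Downstream, 10 calls fell in ATG5, a gene of autophagy. The strongest of these, chr6:106666737-106671258 in an intron 134 kb downstream, scored 13.00 on 37 reads, the most reads of any PRDM1 call. One fragment 91.1 kb upstream, in an exon of an upstream transcript of PRDM1, had 27 reads and a score of 5.08, and no other fragment nearer than 97.5 kb was called.

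Read counts of PRDM1 were lower than those of IRF4. The PRDM1 calls had 10 to 37 reads with a median of 15, and the IRF4 calls 15 to 76 with a median of 31. Their median distances were 353 kb for PRDM1 and 126 kb for IRF4. The paper describes background reads that fall with distance and a capture bias of each bait. Whether these account for the difference in reads was not tested. Scores of at least 10 were given to 24 of the 47 IRF4 calls, to 5 of the 45 PRDM1 calls and to 3 of the 15 IRF8 calls, and to no GM12878 call of the other 5 genes. The share over all GM12878 calls was 16.3%, against 24.8% (Wilson 95% interval 18.2% to 32.9%) for the 8 genes. PRDM1 shared few fragments with other baits. RNU6-344P, a bait in ATG5 with 5 called fragments, shared 4 of the 44 and was itself joined to PRDM1 in calls from both ends, on 27 reads with scores of 6.34 and 9.26.

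IRF8, which acts in germinal centre B cells and in myeloid cells, had its calls in a compact block. Its bait was chr16:85928199-85933639. Of its 15 calls 14 lay downstream, beyond the end of the gene, and a run of 12 called fragments among 14, between 73.3 and 127 kb downstream, covered 61.6 kb without a coding gene. The maximum was chr16:86043525-86050147, an intergenic fragment 116 kb downstream with a score of 19.97 on 44 reads. A score at least as high was given to 1.87% of calls, again a share of single calls set beside the highest of 15. Next came chr16:86050148-86055608 at 122 kb (13.72 on 34 reads) and chr16:86022550-86024067 at 92.4 kb (11.52 on 34 reads). The fragment with the most reads, 61, was the nearest one, 12.1 kb upstream, whose score was 6.05. The last call lay far outside the block, 623 kb downstream, on 9 reads with a score of 5.53. Its midpoint was 9.96 kb from the start of FOXF1, a forkhead gene. The bait of COX4I1 and EMC8, on the other side of IRF8, contacted 15 fragments, of which 9 were among the 15 of IRF8.

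**Figure D2:**
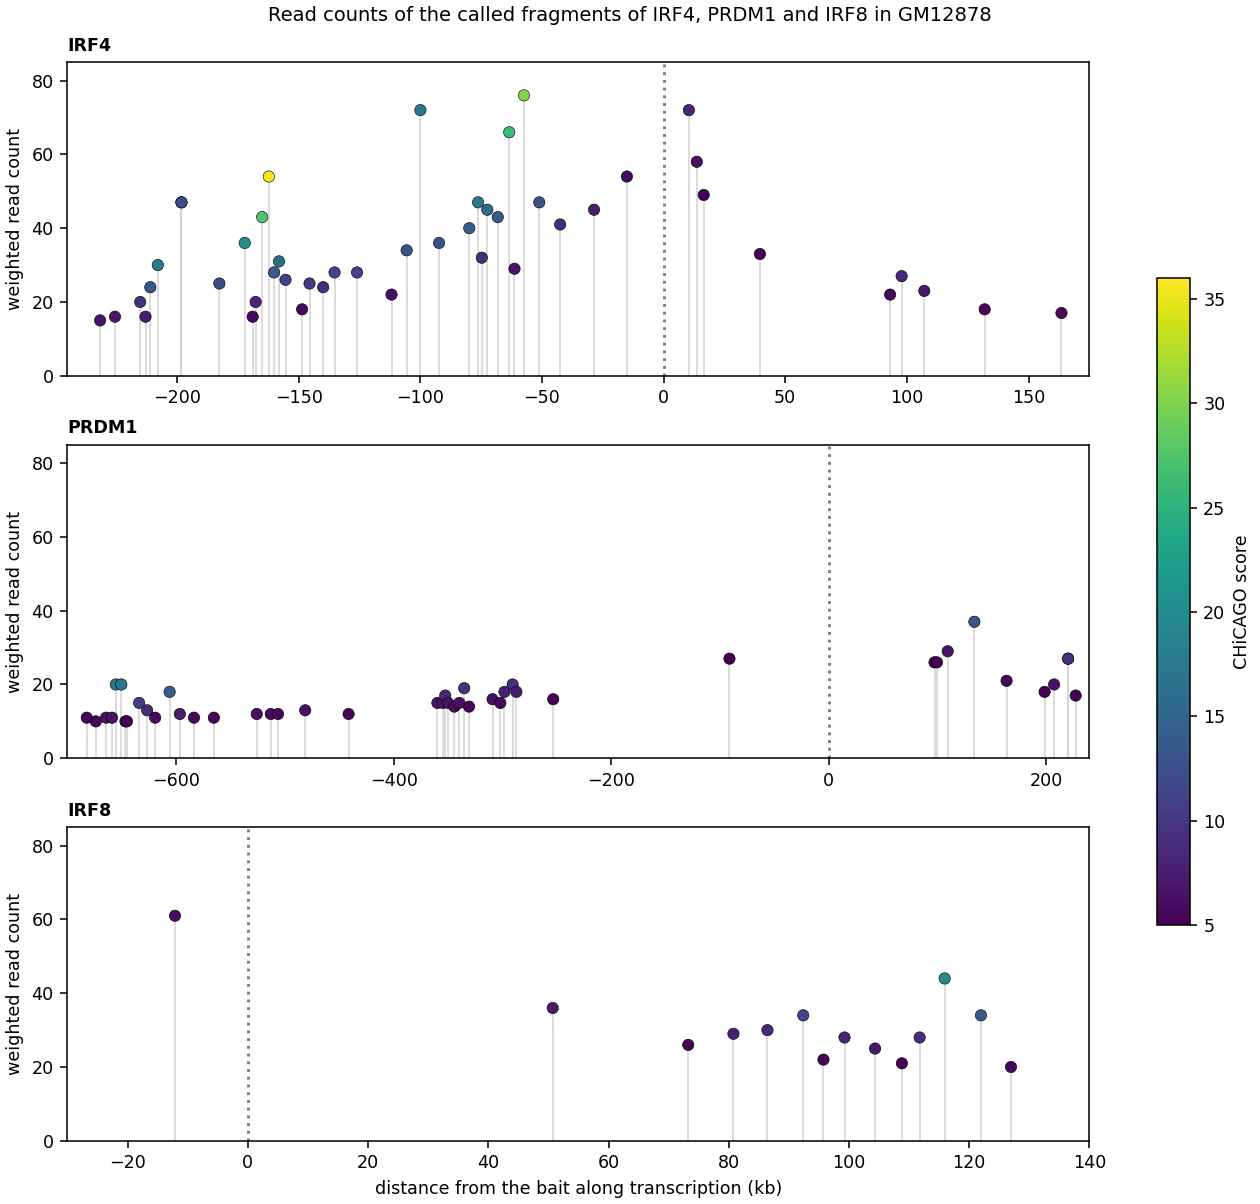
Weighted read count of each called fragment of IRF4, PRDM1 and IRF8 in GM12878 against its distance from the bait, with negative values upstream along transcription, and the CHiCAGO score as colour. The call of IRF8 at 623 kb lies outside the plotted range. Among unbaited fragments IRF4 has local maxima of 54 and 76 reads at 162 and 57.4 kb upstream, and the baited DUSP22 fragment at 100 kb has 72. PRDM1 stays at 37 reads or fewer, and the IRF8 block peaks at 44 reads.

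BCL6, the repressor that defines germinal centre B cells, had no call nearer than 412 kb. Its 8 calls in GM12878 were those of chr3:187460429-187464148 with 5 fragments in LPP, which encodes a LIM-domain protein of cell adhesions, and 3 in TPRG1. The 5 fragments in LPP lay 412, 433, 565, 825 and 919 kb upstream on 16, 13, 14, 5 and 10 reads. The 3 in TPRG1 lay 1202, 1211 and 1370 kb upstream on 7, 12 and 9 reads. The highest score, 9.5, belonged to chr3:188671702-188675007, in an intron of TPRG1. The 4 baited fragments among the 8 were called from the LPP and TPRG1 side and not from the BCL6 side.

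MEF2C, a MADS-box factor that acts downstream of the B cell receptor, also had its 8 calls on one side. They started at chr5:88175844-88186570 and 7 of them ended in introns of the antisense gene MEF2C-AS1, 344 to 530 kb upstream, on 9 to 13 reads. The highest score was 9.41 at 428 kb (chr5:88608129-88610537). The eighth, 1374 kb upstream in LINC01339, had 6 reads and a score of 5.27. Among GM12878 baits with at least 8 *cis*-chromosomal calls, 18.1% of 4624 had all of them on one side, a limit set after the calls of BCL6 and MEF2C had been seen.

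The remaining genes had few calls. CIITA, on chr16:10962189-10976027, contacted 2 adjoining fragments at the start of TVP23A, a Golgi membrane protein gene, 94.4 and 103 kb upstream, on 14 and 13 reads with scores of 5.82 and 5.22, and a fragment in LINC01290, 364 kb upstream, on 8 reads with a score of 5.90. The bait of DEXI, the gene next to CIITA, shared 2 of these 3 fragments. BACH2, on chr6:91005343-91007425, contacted an intergenic fragment 182 kb upstream (13 reads, score 8.95) and a fragment 409 kb downstream, beyond the far end of the gene (7 reads, score 5.64). XBP1, on chr22:29194248-29207234, had a single call 20.1 kb upstream, on 34 reads with a score of 6.21. These 6 calls had scores under 10 and were few, and the counting intervals of the 3 genes overlapped.

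The called fragments of these genes were mostly not promoters. A baited other end stood in 7.75% (4.26% to 13.7%) of the 129 GM12878 calls, against 29.4% of all calls. These calls joined 8 distinct pairs of baited fragments, and 2 of the 8 pairs, both described above, were called from both ends, as were 18.5% of such pairs over all GM12878 calls. Of the 127 called fragments 15.7% (10.4% to 23.1%) overlapped a transcription start, against 35.9% over all called fragments, and 40.2% (32.0% to 48.9%) lay in introns without touching an exon, against 24.8%. Exonic fragments made up 22.0% and 21.1%, and intergenic fragments 22.0% and 18.2%. Introns held 33 of the 45 PRDM1 calls and 7 of the 8 MEF2C calls, whereas 18 of the 47 IRF4 calls were intergenic. BCL6 went the other way, with 5 of its 8 calls at a transcription start and 4 with a baited other end. CIITA had 2 of its 3 calls at a transcription start. No call was *trans*-chromosomal, a count that allows a share of up to 2.33% as 3 counts of 129, or 2.89% by the Wilson interval, and 0.310% of all calls were.

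The median *cis*-chromosomal distance was 198 kb for the 8 genes and 174 kb over all calls. Without IRF4 and PRDM1 it was 344 kb. Calls over 1 Mb numbered 4, 3 of BCL6 and 1 of MEF2C, or 3.10% (1.21% to 7.70%) against 1.64% of all calls. Over all *cis*-chromosomal calls of GM12878, 76.6% passed over the start of a coding gene that neither fragment names, and 57 of the 129 calls of the 8 genes did so (44.2%). They were 32 calls of IRF4, which passed a start of DUSP22, 14 of PRDM1, 6 of BCL6, 3 of CIITA and 1 each of IRF8 and BACH2. Some of these IRF4 calls ended inside DUSP22 and passed only a start within that gene. None of the 8 calls of MEF2C did.

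**Figure D3:**
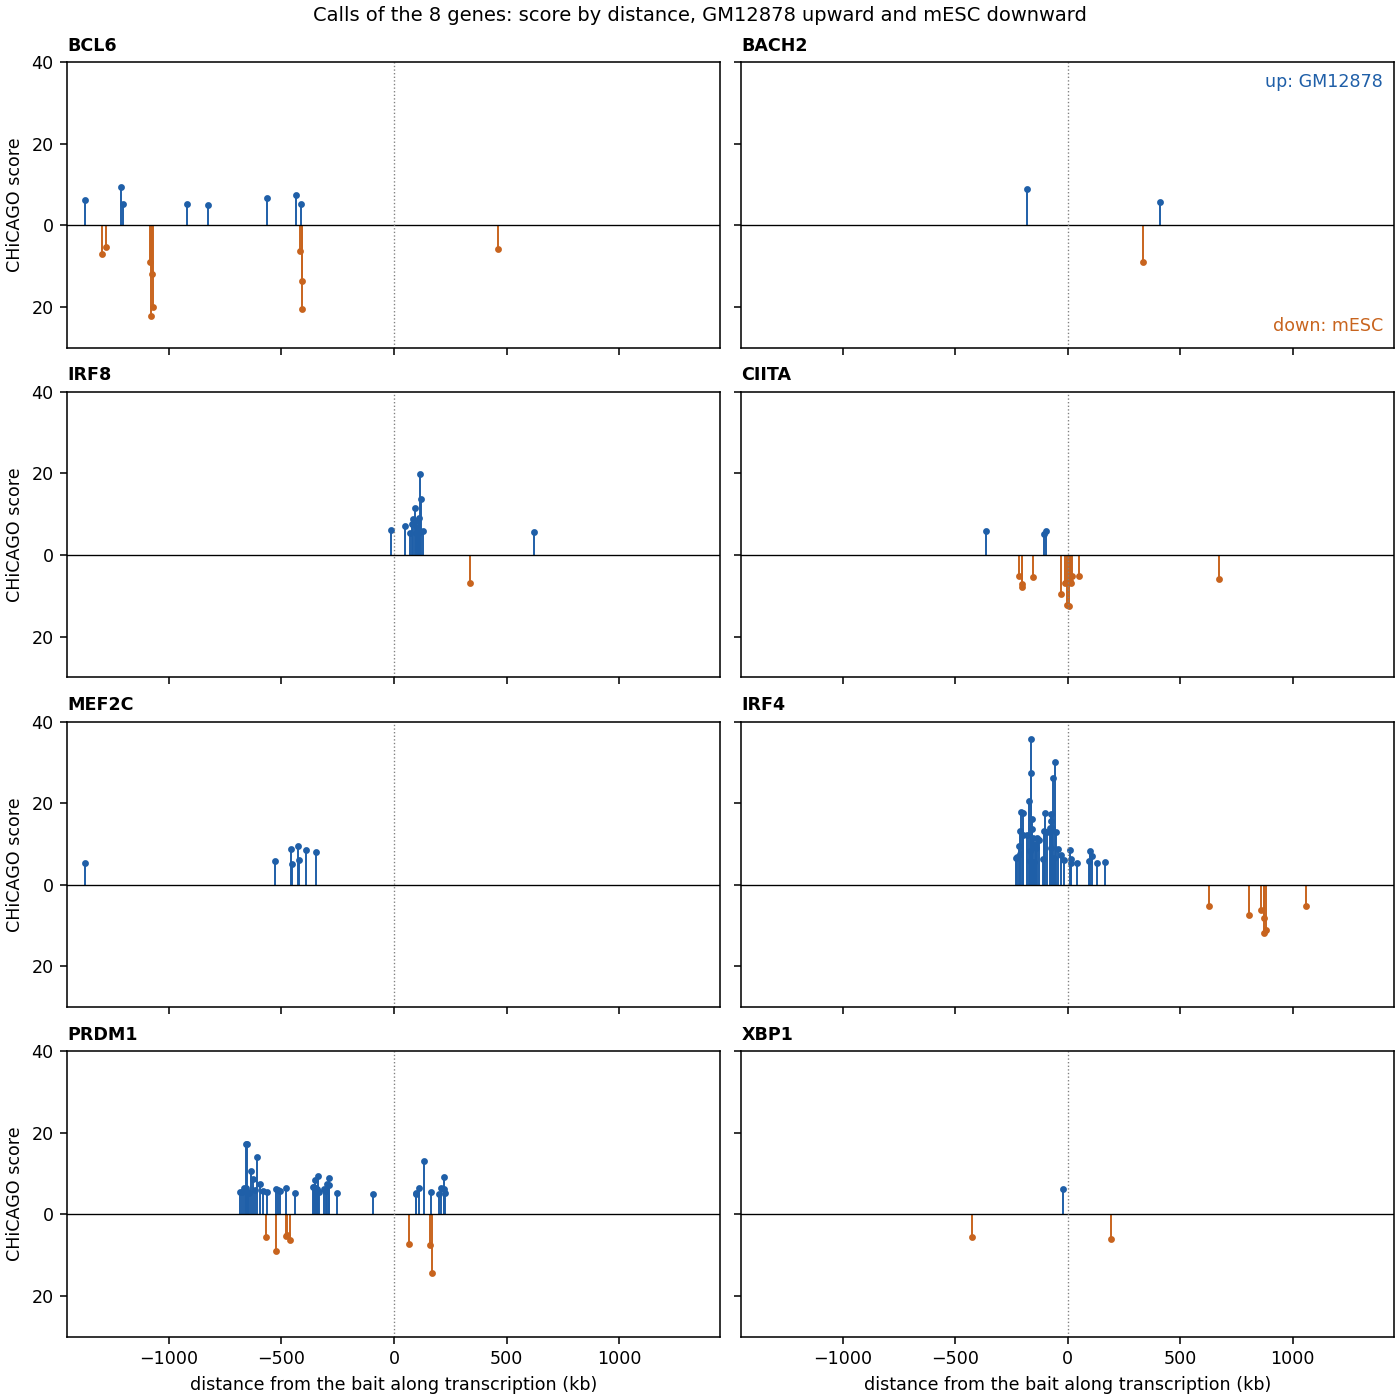
CHiCAGO score of each *cis*-chromosomal call against its distance from the gene's bait, negative upstream along transcription, drawn upward for GM12878 and downward for mESCs. IRF4 calls lie within 232 kb in GM12878 and between 629 and 1060 kb downstream in mESCs, whereas BCL6 calls lie upstream in GM12878 and, apart from the one at 463 kb, in mESCs.

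Set beside the mouse genes, IRF4 had no neighbourhood in common. The 7 *cis*-chromosomal calls of Irf4 (chr13:30837844-30848492, mm9) lay 629 to 1060 kb downstream, on 6 to 10 reads, around the forkhead genes Foxq1, Foxf2 and Foxc1, which pattern mesenchyme and other tissues in the embryo. The strongest joined Irf4 with the Foxf2 promoter fragment 871 kb away, called from both ends on 10 reads with scores of 8.26 and 11.87. The fragment next to it, at 879 kb, scored 11.20 on 10 reads. Irf4 contacted 7 distinct fragments, 1 of them on another chromosome, and baits of Foxq1 and Foxc1 shared 3 of these each. None of the calls lay upstream, where 38 of the GM12878 calls of IRF4 were. Irf4 also had the only *trans*-chromosomal call among the 42, to chr17:85602221-85603656 on 4 reads with a score of 9.27.

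Among the other genes with calls in both lists, BCL6, PRDM1, CIITA and IRF8 had coding genes at or nearest to their called fragments in common. For IRF8 this gene was FOXF1, whose mouse symbol, Foxf1a, differs. For Bach2 in mESCs and XBP1 in GM12878 the only such coding gene was the gene itself, so no other could be in common. BCL6 was one of 3 of the 8 genes with a named partner in both lists, and the only one with a partner symbol in common, LPP, where 51.1% of 6708 symbols with named partners in both lists had one. The Lpp promoter fragment lay 408 kb upstream of mouse Bcl6 and was called from both ends on 27 reads, with scores of 13.54 and 20.44, and the LPP promoter fragment lay 412 kb upstream of human BCL6 on 16 reads with a score of 5.29. The promoter fragment of Tprg, the mouse gene that corresponds to TPRG1 but differs in symbol, was contacted at 1298 kb on 8 reads. The highest score of mouse Bcl6, 22.12 on 18 reads, was that of a fragment 1079 kb upstream in A230028O05Rik, one of 4 adjoining called fragments on 10 to 18 reads. One call, to Masp1 on 8 reads, lay downstream.

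Prdm1 contacted the genes that flank PRDM1 in human. Of its 8 calls in mESCs 5 lay 461 to 569 kb upstream in the region of Gm4795 and Prep, on 5 to 11 reads, and 2 lay in Atg5, 162 and 167 kb downstream, with the highest score 14.32 on 10 reads at the Mir1929 fragment. The eighth, 66.7 kb downstream, was at another start of Prdm1 and had 25 reads. ATG5 and PREP were thus at or nearest to called fragments in both lists, although no partner symbol was common to them. Irf8 had a single call, 339 kb downstream on 12 reads with a score of 6.91, and the midpoint of that fragment lay 10.2 kb from the start of Foxf1a, the mouse FOXF1. The distant call of human IRF8 had the same neighbour at 9.96 kb.

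Ciita had more calls in mESCs than CIITA had in GM12878, and most were short. It was captured through 2 fragments, chr16:10477900-10480615 and chr16:10488828-10498015, joined to each other on 47 reads. The fragments 3.69 kb upstream (195 reads, score 12.32) and 7.97 kb downstream (109 reads, score 12.41) had the most reads. The promoter of Fam18a, a symbol that the RefSeq table lists as an older name of TVP23A, was called 31.4 kb upstream on 9 reads with a score of 9.51, so that TVP23A stood beside called fragments in both lists. The longest call, to U1.17 in Zc3h7a, spanned 673 kb on 7 reads. Bach2 contacted a fragment 336 kb downstream near the end of its own gene, where BC024582 starts, on 7 reads with a score of 8.94. Xbp1 contacted the promoter fragments of Rhbdd3, 424 kb upstream (12 reads), and Mrps24, 192 kb downstream (9 reads).

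In mESCs the baited share of the calls, 45.2% (31.2% to 60.1%), had an interval that held the 36.3% of all calls, and the median *cis*-chromosomal distance was 424 kb (interval from the ordered distances 216 to 629 kb) against 139 kb. With at least 10 reads a call, this median was 271 kb. Calls with the 8 genes had a median of 10 reads in mESCs and 20 in GM12878, against 13 and 16 over all calls. The Hi-C library allowed a second look at the shorter mESC interactions. Of the 34 calls under 1 Mb, 4 (11.8%) fell within a bin pair of 25 kb with an FDR under 0.05 (Wilson 95% interval 4.67% to 26.6%), against 11.6% of all mESC calls under 1 Mb. They were short Ciita calls and shared one bin pair, with 66 read pairs against 32.1 expected and an FDR of 0.00493.

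**Figure D4:**
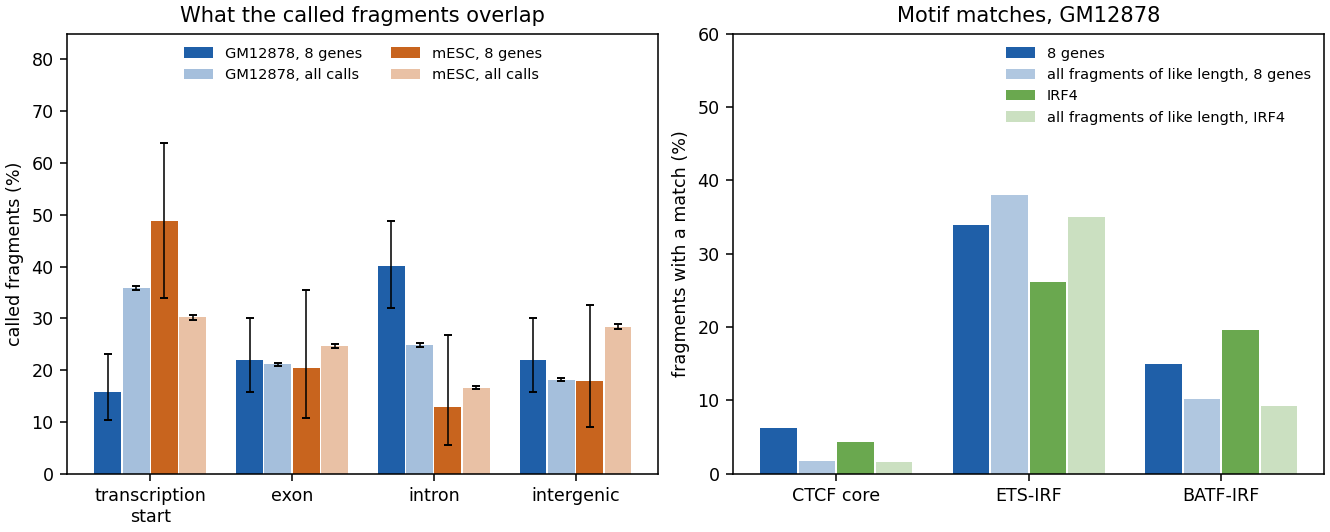
Left, share of called fragments that overlap a transcription start, else an exon, else an intron, else no gene, for the 8 genes (dark) and all calls (pale), with Wilson 95% intervals. Right, share of GM12878 called fragments with a motif match for the 8 genes and for IRF4, each beside all hg19 fragments of like length. Fragments at a transcription start are 15.7% in GM12878, against 35.9% over all called fragments, and 48.7% in mESCs, against 30.2%. The gene annotations of the 2 builds differ in release, so these shares are compared within a cell type. CTCF core matches stand in 6.30% against 1.77%.

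The sequences of the called fragments were searched on both strands for 3 motifs. The core of the CTCF motif was chosen because CTCF sits at the anchors of many chromatin loops. The ETS-IRF composite (GGAANNGAAA) and the BATF-IRF composite (TTTCNNNNTGANTNA) are elements at which IRF4 and IRF8 bind DNA together with PU.1 or SPIB and with BATF. The CTCF core stood in 8 of the 127 called fragments (6.30%), against 1.77% of hg19 fragments within 10% of the same lengths. The BATF-IRF composite stood in 19 (15.0%), against 10.2%, and the ETS-IRF composite in 43 (33.9%), against 38.0%. These backgrounds hold genome fragments whether called or not, and the share over all called fragments was not taken. The authors found CTCF binding sites strongly enriched at promoter-interacting fragments in general. Whether the CTCF share is particular to these genes was not tested. Matches of different motifs were counted separately, even where they share bases. A match is a run of letters, and binding was not measured.

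The CTCF core matches were spread over 7 of the 8 genes, with none at MEF2C, and without IRF4 and PRDM1 they stood in 5 of 37 fragments (13.5% against 2.31%). They are shown in capitals with 15 bases on either side, because they stand in only 8 called fragments. The matches of IRF4, IRF8 and PRDM1 lie in neither the farthest nor the top-scoring fragment of their gene. BACH2, XBP1 and CIITA have 2, 1 and 3 called fragments, so the rank of a match among them says little. That of BCL6 is in its top-scoring fragment, that of BACH2 in the fragment 182 kb upstream, that of XBP1 in its single called fragment, that of IRF8 in a fragment of the block 86.4 kb downstream, and that of PRDM1 353 kb upstream. The CIITA fragment in LINC01290 holds a pair on opposite strands. Each is written on the strand of the match, and a second IRF4 match, in EXOC2, is not printed. That match lies 164 kb downstream, in the farthest called IRF4 fragment on the downstream side.
BCL6, chr3:188672569-188672610, reverse strand: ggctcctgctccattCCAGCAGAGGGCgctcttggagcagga
IRF4, chr6:217228-217269, forward strand: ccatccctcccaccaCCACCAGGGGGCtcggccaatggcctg
IRF8, chr16:86021317-86021358, reverse strand: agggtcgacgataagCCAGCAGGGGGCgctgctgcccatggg
PRDM1, chr6:106181606-106181647, forward strand: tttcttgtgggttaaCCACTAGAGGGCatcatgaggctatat
BACH2, chr6:91189211-91189252, reverse strand: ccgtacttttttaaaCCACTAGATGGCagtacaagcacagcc
XBP1, chr22:29225532-29225573, reverse strand: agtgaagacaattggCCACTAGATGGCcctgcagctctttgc
CIITA, chr16:10603598-10603639, reverse strand: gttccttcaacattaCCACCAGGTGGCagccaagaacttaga
CIITA, chr16:10608618-10608659, forward strand: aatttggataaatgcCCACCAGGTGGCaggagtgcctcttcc

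The BATF-IRF composite stood in 9 of the 46 IRF4 fragments (19.6%), against 9.23% of fragments of like length, in 4 of the 44 PRDM1 fragments (9.09% against 9.62%), in 3 of the 8 MEF2C fragments (37.5% against 9.85%), and in none of the 15 IRF8 fragments, against 11.1%. Both adjoining intergenic fragments 162 and 165 kb upstream of IRF4 held one, and 162 kb is where IRF4 had its highest score. They are shown with the match in capitals, on the strand of the match.
IRF4, 165 kb upstream, chr6:229384-229428, reverse strand: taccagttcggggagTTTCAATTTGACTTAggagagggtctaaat
IRF4, 162 kb upstream, chr6:232244-232288, forward strand: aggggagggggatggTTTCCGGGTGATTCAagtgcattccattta
The fragment with the most IRF4 reads, 57.4 kb upstream in DUSP22, held no match to this motif. Beside these, the ETS-IRF composite stood in 12 of the 46 IRF4 fragments (26.1% against 35.0%) and in 18 of the 44 PRDM1 fragments (40.9% against 36.5%).

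A list of 24 other genes of the germinal centre and of plasma cells gave a setting for these values. Of them 23 had a call in GM12878, with a median of 10 calls, and 20 in mESCs, with a median of 6. At least 10 GM12878 calls were listed for 12 of the 23, against 25.3% of all symbols with a call. None reached 40, against 2.58%. A ratio of at least 2 favoured GM12878 in 31.6% and mESCs in 34.6% of the 8690 symbols with a call in both lists. Among the 19 genes of this list with a call in both, 9 had at least 2 times as many calls in GM12878 and 6 at least 2 times as many in mESCs. The first group included ELL2, an elongation factor of antibody-secreting cells (33 calls against 2), GNA13 (10 against 1), the methyltransferase gene EZH2 (26 against 4), MEF2B (31 against 6) and the acetyltransferase gene CREBBP (33 against 11). The second included S1PR2, a receptor that keeps B cells in the germinal centre (9 against 48), and ATF6 (6 against 20). The genes named are examples of the 9 and of the 6.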

How the data were processed

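Promoter CHi-C of GM12878 (3 biological replicates) and mESCs (2), and Hi-C of mESCs (1 library), were used. For the deposited lists the authors mapped reads with HiCUP to hg19 or mm9 and ran CHiCAGO jointly on the replicates. The submitters' processing notes name Bowtie 1.1.0 and, for Hi-C, HOMER 4.7. The score deposited by the authors is CHiCAGO's, from weighted p-values, at a minimum of 5. The read count deposited by the authors is a rounded, weighted mean over replicates, not a raw count, and sums to 1850002 over the GM12878 calls and 2010332 over the mESC calls. This is the depth that the lists show. The Hi-C signal deposited by the authors (read pairs expected from coverage and distance), the count of read pairs per bin pair and the FDR (an adjusted p-value) were taken as deposited.

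Symbols were read from both ends of a call after removing transcript suffixes. In silico HindIII fragments matched 100% of the listed fragments. Distances were taken between fragment midpoints, and upstream and downstream follow the gene's strand. A baited other end is one that carries a name or is listed as a bait. Genes come from a GENCODE annotation of each build, of different releases. Promoters come from RefSeq, whose windows were placed on hg19 by exact match. The genes, lists and measures were chosen with earlier results of these data known. The genes named are the 8 genes, their 3 top-scoring calls, the call on the most reads, the longest call, any *trans*-chromosomal call, named and shared partners, and the 2 baits that share most fragments. With 1 set of calls per cell type no test was made. Counts have exact Poisson and shares Wilson 95% intervals, which cover counting error alone. The authors removed duplicate reads with HiCUP, but without molecular identifiers the remaining reads may still not be independent molecules. Neighbouring fragments are not independent calls. A result on 1 gene of the list of 24 is not reported here, and the counts over the list include that gene. The member search was tested on simulated data. Alternatives were a score of at least 10, at least 10 reads, the browser list, bait ends alone, unshared fragments, a 20 kb gap, an FDR of 0.01 and calls per 100000. Python 3.11.15, numpy 2.4.6, pandas 2.3.3, scipy 1.17.1 and matplotlib 3.10.9 were used.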

Additional observations from a re-analysis of the deposited data

How the results depend on the processing

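No paired analysis was possible because no list holds values per replicate, so replicates could not be left out either. With a score of at least 10, GM12878 kept 32 calls and 8 groups of fragments and mESCs kept 10 calls, the median distances became 140 and 639 kb, 2 genes (IRF4 and PRDM1) had at least 2 times as many calls in GM12878, no partner symbol was common to both lists, and 28.6% of mESC calls under 1 Mb lay in Hi-C bin pairs. With at least 10 reads, mESCs kept 24 calls and their median distance fell from 424 to 271 kb, within the interval of 216 to 629 kb. With the gene at the bait end alone, the baited share was 1.65% in GM12878 and 25.8% in mESCs and no gene had a common partner, which was also 0 where the gene had to be alone on its fragment, because the BCL6 fragment carries a further symbol. Without IRF4 and PRDM1, an alternative chosen after seeing the data, 37 and 26 calls remained and the GM12878 median was 344 kb. The remaining values stayed within their interval or, for counts, near the reported number. Contacts of BACH2, XBP1 and CIITA in GM12878 and of Irf8 and Bach2 in mESCs rest on 1 to 3 calls each, mostly on under 15 reads, and the absence of a call does not show the absence of contact at this depth.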
